A study of Mus musculus with 16 samples.

Results

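The calcineurin-NFAT axis was followed in tumor-infiltrating T lymphocytes (TILs) through 8 genes, taken as the rows of the count table whose gene name is Nfatc1, Nfatc2, Nfatc3, Nfat5, Ppp3ca, Ppp3cb, Ppp3r1 or Rcan1, out of 55450 rows in all. Each name matched 1 row, and all 8 genes passed the filter on low counts in every comparison. The libraries came from total RNA of CD4+ and CD8+ TILs of subcutaneous B16F10 tumors, a mouse melanoma line, grown in wild-type (WT) C57BL/6J mice or in B6.129-Sirt2tm1.1Fwa/J mice, which lack Sirt2 in the germline (Sirt2-/-), without further treatment. There were 4 libraries for each cell type and genotype, 16 in all, and the groups differ by no other label. The study's methods describe hosts of both sexes, matched for age and sex. The deletion is carried by all host cells and not only by T cells, while the injected tumor cells are the same line in both genotypes. The series was made to ask how loss of the deacetylase SIRT2 affects pathways downstream of the T cell receptor (TCR) in the tumor.

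When the TCR is engaged, phospholipase C-gamma 1 opens calcium stores in the endoplasmic reticulum through inositol trisphosphate receptors, and calcium then enters through ORAI channels that STIM proteins gate. The calcium signal activates calcineurin, a phosphatase made of a catalytic A subunit (encoded by Ppp3ca, Ppp3cb or Ppp3cc) and a regulatory B subunit (Ppp3r1). Calcineurin removes phosphates from NFATc1, NFATc2 and NFATc3, which move to the nucleus and, with AP-1, switch on cytokine genes. Without AP-1 they drive genes of anergy and exhaustion. NFAT5 shares the DNA-binding domain but lacks the calcineurin docking region and is known for the response to osmotic stress. RCAN1 binds and restrains calcineurin, and its gene is itself a target of the pathway. NFAT activity is set mainly by phosphorylation and location in the cell, which RNA counts do not measure.

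Total counts per library ran from 28000949 to 62407851. Fewer genes had a count in 3 libraries, Sirt2-/- CD4+ replicate 4 (8169), WT CD4+ replicate 1 (12587) and WT CD8+ replicate 1 (14411), than in the other 13 (17730 to 22138), so results are given with and without these 3. The summed level of Cd4, Cd40lg and Zbtb7b was 436 to 719.7 CPM (counts scaled by library size) in CD4+ libraries against 0.787 to 12.3 CPM in CD8+ libraries, and that of Cd8a, Cd8b1 and Runx3 was 178 to 306.8 CPM against 1876 to 2375 CPM. The 4 CD3 and zeta chain genes summed to 970.5 to 2049 CPM, 7 myeloid genes to at most 32.4 CPM, and 5 melanocyte genes to at most 84.2 CPM, in WT CD4+ replicate 1. The Treg cell markers Foxp3, Il2ra and Ikzf2 summed to 1005 to 2208 CPM in CD4+ and 97.0 to 295.5 CPM in CD8+ libraries. Sirt2 itself lay at 33.4 to 75.6 CPM in the 8 WT and at 0 to 12.2 CPM in the 8 Sirt2-/- libraries. The Y-linked gene Ddx3y was at 2.18 to 121.3 CPM in the 8 WT libraries, highest in replicate 2 of both cell types (121.3 and 111.6 CPM), and at 0 to 0.452 CPM in the Sirt2-/- libraries, so RNA of male origin was unevenly spread over the genotypes. The X-linked gene Xist was at 67.42 and 61.65 CPM in WT replicate 2 of CD4+ and CD8+ TILs, and at 443.3 to 1297 CPM in all other libraries. Genotype comparisons are therefore also given without WT replicate 2 where its values are given. The remaining WT libraries still held Ddx3y at 2.18 CPM or more, so leaving out replicate 2 does not remove this difference between genotypes. All libraries are bulk RNA, in which fewer cells of a type and less RNA per cell cannot be told apart.

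All 4 NFAT genes were expressed in all 16 libraries. Levels between genes are compared as CPM per kilobase of exon (the union of exons of the gene in GENCODE M21). On that scale Nfatc1 and Nfatc3 stood above Nfatc2 and Nfat5 in the mean of every group. Nfatc1 averaged 30.9 ± 2.64 CPM per kilobase in WT CD4+, 26.8 ± 3.05 in Sirt2-/- CD4+, 31.9 ± 3.71 in WT CD8+ and 30.4 ± 2.17 in Sirt2-/- CD8+ TILs (SD, n = 4 each). Nfatc3 averaged 26.1 ± 5.80, 30.8 ± 3.06, 25.5 ± 2.48 and 25.2 ± 2.16 CPM per kilobase in the same order. In CD8+ TILs of either genotype no library overlapped between Nfatc1 and Nfatc3 on this scale, whereas in CD4+ TILs the ranges of these neighbours overlapped. With the longest coding transcript in place of all exons, a choice made after the data were seen, the order of the means turned in WT CD4+ TILs (50.3 for Nfatc1 and 51.2 CPM per kilobase for Nfatc3) and stayed as it was in the other 3 groups. In CD8+ TILs the means of Nfatc1 and Nfatc3 then lay close, at 51.9 and 50.05 CPM per kilobase in WT. They were 49.45 and 49.36 in Sirt2-/- TILs, so the gap in CD8+ TILs depends on the length model. Nfatc2 averaged 12.2 to 17.2 and Nfat5 9.27 to 13.6 CPM per kilobase over the 4 groups, and these neighbours overlapped in every group except Sirt2-/- CD8+ TILs. As a share of the 4 NFAT genes together, Nfatc1 made up 33.6% to 38.5%, Nfatc3 29.6% to 38.7%, Nfatc2 14.6% to 19.7% and Nfat5 11.8% to 15.6% in the group means. By the longest coding transcripts Nfatc1 made up 31.8% to 36.9% and Nfatc3 34.4% to 44.2%. The fourth calcium-regulated factor, Nfatc4, had no count in 13 libraries and at most 0.141 CPM in the other 3.

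**Figure D1:**
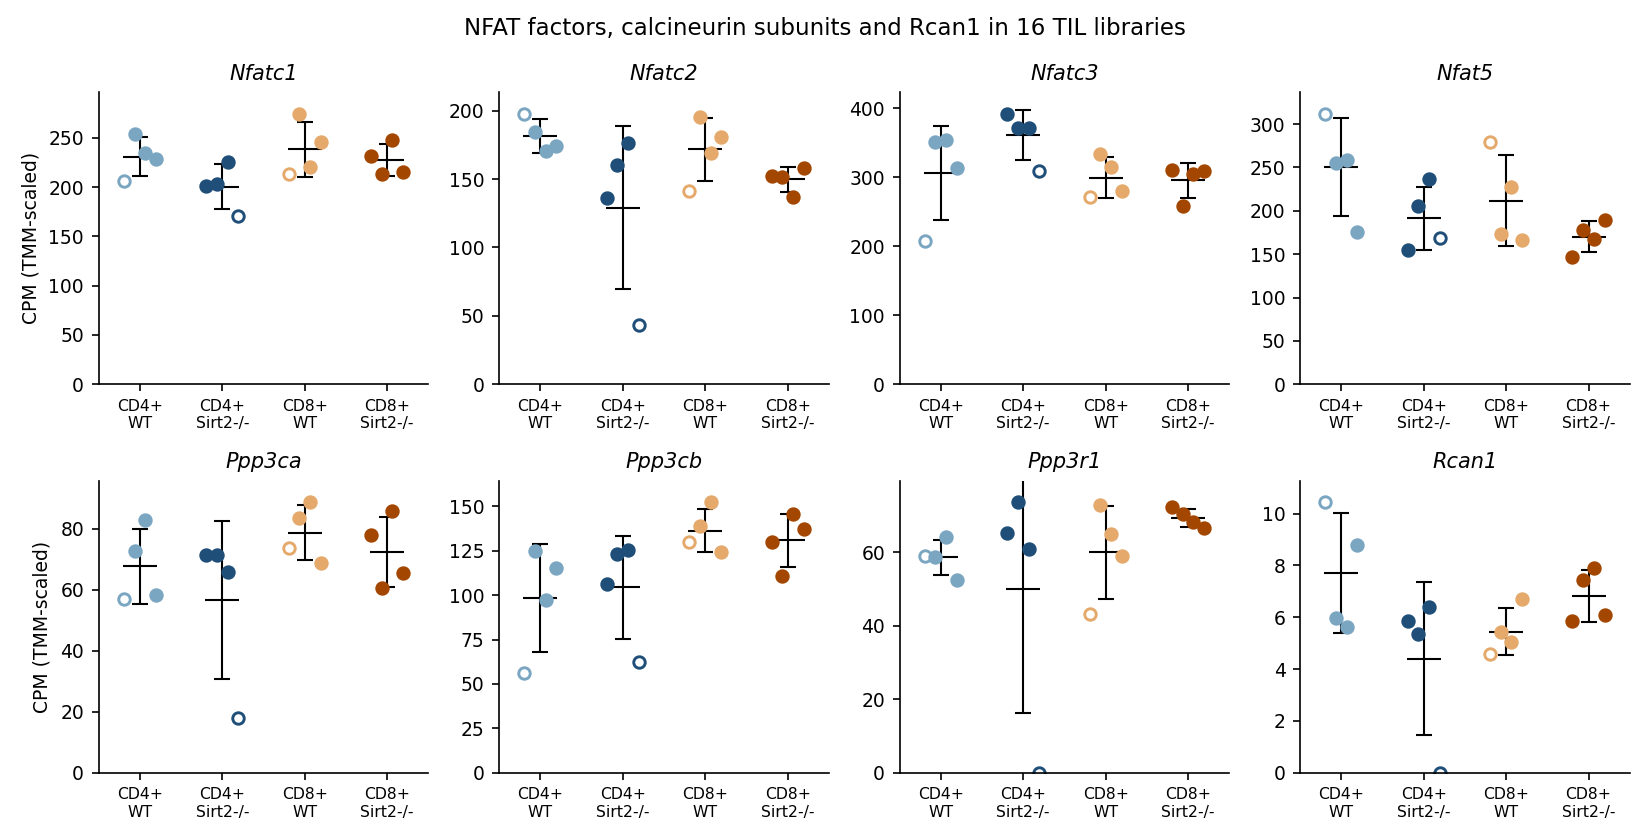
CPM (TMM-scaled, linear axis from 0) of the 8 genes in each library, by cell type and genotype, with the group mean and SD as a bar and whiskers (n = 4) and the 3 libraries with few genes detected as open points. The groups overlap for all 8 genes, and Sirt2-/- CD4+ replicate 4 holds the lowest point of Nfatc1, Nfatc2, Ppp3ca, Ppp3r1 and Rcan1.

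Nfatc1, whose product is induced by the TCR through its own inducible promoter, is on chromosome 18 of GRCm38. It was at 205.9, 253.6, 235.0 and 228.5 CPM in WT CD4+ replicates 1 to 4 and at 201.3, 203.1, 225.7 and 170.3 CPM in the Sirt2-/- ones. In CD8+ TILs the values were 213.4, 274.4, 220.0 and 245.2 CPM (WT) and 231.9, 213.5, 247.8 and 214.9 CPM (Sirt2-/-). The highest value of either WT group was that of replicate 2, the library with the most Ddx3y, and the groups overlapped in both cell types.

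Nfatc2 (chr2:168476410-168601657, minus strand) encodes the NFAT protein most abundant in resting T cells. Its values were 197.8, 184.2, 170.4 and 173.8 CPM in WT CD4+ and 136.4, 160.1, 176.7 and 43.6 CPM in Sirt2-/- CD4+ TILs. In CD8+ TILs they were 141.6, 195.3, 168.8 and 181.0 CPM (WT) and 152.4, 151.5, 136.8 and 158.3 CPM (Sirt2-/-). The value of 43.6 CPM belongs to the library with the fewest genes detected, and the lowest WT CD8+ value to another library of that kind.

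Nfatc3 (chr8:106058840-106130537, plus strand), which acts beside NFATc2 in T cells, had the highest mean CPM of the 4 in every group before scaling by length. It was at 207.9, 350.4, 353.4 and 313.1 CPM in WT CD4+ and 392.0, 371.5, 371.3 and 309.1 CPM in Sirt2-/- CD4+ TILs. The CD8+ values were 271.3, 333.1, 314.2 and 279.4 CPM (WT) and 310.3, 257.6, 305.3 and 308.4 CPM (Sirt2-/-). Sirt2-/- CD4+ replicates 1 to 3 were the 3 highest of the 16 libraries. The span of Esrp2, on the other strand, overlaps exons of Nfatc3, but overlap with the exons of Esrp2 was not examined. The strand setting of the counting is not given in the sources used here, so some reads may belong to either gene.

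Nfat5 (chr8:107293470-107379517, plus strand), the osmotic stress factor, varied the most of the 8 genes over the 13 libraries with more genes detected. Its SD over those libraries was 0.272 on the log2 CPM scale, against 0.129 for Nfatc1, 0.159 for Nfatc2, 0.173 for Nfatc3 and 0.233 for Rcan1. Its values were 312.0, 254.9, 258.7 and 175.3 CPM in WT CD4+ and 155.2, 205.4, 236.2 and 168.1 CPM in Sirt2-/- CD4+ TILs. In CD8+ TILs they were 279.3, 173.3, 227.1 and 166.5 CPM (WT) and 146.8, 178.2, 167.0 and 189.2 CPM (Sirt2-/-). The highest value of either WT group came from replicate 1, which had few genes detected in both cell types.

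Of the calcineurin genes, the regulatory subunit Ppp3r1 (chr11:17159263-17200375, plus strand) averaged 15.5 to 21.5 CPM per kilobase over the 4 groups. Ppp3cb (chr14:20499364-20546573, minus strand) averaged 11.2 to 15.5 and Ppp3ca (chr3:136670124-136937727, plus strand) 5.67 to 7.87 CPM per kilobase. Ppp3ca and Ppp3cb did not overlap in any group except Sirt2-/- CD4+ and WT CD4+ TILs. Ppp3ca has 9981 bases of exon in all but 2194 in its longest coding transcript, and by the latter its mean was 25.8 to 35.8 CPM per kilobase, level with Ppp3cb (25.7 to 35.6). The order of these catalytic subunits therefore depends on the length model. The third catalytic gene, Ppp3cc, which is no member of the 8, held the largest mean share of the catalytic subunits in every group by either length.

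Ppp3ca encodes the alpha form of the catalytic subunit. It was at 56.9, 72.6, 82.7 and 58.2 CPM in WT CD4+ and at 71.3, 71.3, 65.8 and 18.1 CPM in Sirt2-/- CD4+ TILs. In CD8+ TILs the values were 73.8, 83.3, 88.6 and 68.6 CPM (WT) and 77.8, 60.4, 85.7 and 65.5 CPM (Sirt2-/-). Apart from the value of 18.1 CPM, all libraries lay within 56.9 to 88.6 CPM.

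Ppp3cb, which encodes the beta form, needed for normal T cell development in the mouse, was at 56.4, 124.8, 97.1 and 115.3 CPM in WT CD4+ and 106.4, 123.2, 125.4 and 62.7 CPM in Sirt2-/- CD4+ TILs. The CD8+ values were 130.2, 138.7, 152.4 and 124.1 CPM (WT) and 129.7, 110.9, 146.0 and 137.0 CPM (Sirt2-/-). The 2 lowest values came from CD4+ libraries with few genes detected. The antisense gene 1810062O18Rik overlaps exons of Ppp3cb.

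Ppp3r1 was at 59.1, 58.7, 64.2 and 52.3 CPM in WT CD4+ and 65.2, 73.6, 61.0 and 0.0179 CPM in Sirt2-/- CD4+ TILs, the last being 1 read. In CD8+ TILs it was at 43.2, 72.9, 64.9 and 58.8 CPM (WT) and 72.4, 70.3, 68.1 and 66.7 CPM (Sirt2-/-). A single read in a library of 62407851 counts, for a gene with 1428 to 3559 reads in the other 15, is below the 3 reads taken here as the floor, and Stim1, the calcium sensor of the endoplasmic reticulum, was likewise near 0 in that library (0.0537 CPM, against 71.2 to 108.8 CPM in the other 7 CD4+ libraries). The span of Wdr92, on the same strand, overlaps exons of Ppp3r1, and overlap with the exons of Wdr92 was not examined.

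Rcan1 (chr16:92391953-92470867, minus strand) was the lowest of the 8, with 1.43 to 2.50 CPM per kilobase in the group means. Its values were 10.4, 5.97, 5.64 and 8.77 CPM in WT CD4+ and 5.87, 5.36, 6.39 and 0 CPM in Sirt2-/- CD4+ TILs. In CD8+ TILs they were 4.60, 5.42, 5.03 and 6.72 CPM (WT) and 5.84, 7.43, 7.90 and 6.10 CPM (Sirt2-/-). These values rest on 152 to 390 reads a library, apart from 0 reads in Sirt2-/- CD4+ replicate 4, which allows up to 0.0537 CPM (3 reads, counting error only). The antisense gene Gm46555 overlaps exons of Rcan1.

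Rcan1 is transcribed from alternative first exons, and the shorter form is the classical calcineurin-NFAT target, so both start regions are shown. The gene-level counts add them up. The RefSeq promoter sequences (GRCm38.p6, minus strand, 250 bases before to 50 after the start) are printed 5′ to 3′ with each match to the NFAT core GGAAA or its reverse complement TTTCC in capitals. Matches on either strand were counted, and none overlap.
Rcan1 upstream start, chr16:92466120-92466419: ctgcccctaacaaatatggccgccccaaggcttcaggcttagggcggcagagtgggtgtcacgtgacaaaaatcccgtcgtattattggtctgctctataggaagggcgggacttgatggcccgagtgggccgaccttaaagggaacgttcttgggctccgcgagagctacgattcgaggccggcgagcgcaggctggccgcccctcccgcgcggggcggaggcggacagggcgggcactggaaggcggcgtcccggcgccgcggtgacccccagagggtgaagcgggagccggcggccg
Rcan1 internal start, chr16:92400029-92400328: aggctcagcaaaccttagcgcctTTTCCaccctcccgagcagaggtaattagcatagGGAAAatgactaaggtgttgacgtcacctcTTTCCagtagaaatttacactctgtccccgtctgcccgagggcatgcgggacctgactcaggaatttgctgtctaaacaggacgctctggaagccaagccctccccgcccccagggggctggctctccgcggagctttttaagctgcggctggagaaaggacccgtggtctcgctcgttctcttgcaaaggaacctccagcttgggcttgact
The upstream region held 0 matches and the internal region 3, at positions 24, 58 and 88 from its 5′ end. Of 32851 mouse promoters of this length, 61.3% held at least 1 match and 9.42% at least 3. A match is a run of letters and not a measured site. RefSeq promoters were matched for 6 of the 8 genes, with 3 and 1 matches at the 2 starts of Nfatc2, 1 and 0 at those of Nfatc3, 2 at Nfat5, 4 at Ppp3cb and 0 at Ppp3r1.

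Sirt2-/- and WT CD4+ TILs were compared first, with edgeR's quasi-likelihood test and Benjamini-Hochberg adjustment over 15070 genes. None of the 8 genes was called at an adjusted p below 0.05, and none had an unadjusted p below 0.05. DESeq2 called none of them either, and 6 of 24478 genes in all. The background with edgeR was 0% of genes called, so the absence of calls is shared with the rest of the table. Nfatc3 had a log2 fold change (Sirt2-/- over WT) of 0.24 (95% interval -0.20 to 0.68) and Ppp3cb one of 0.09 (-0.58 to 0.76). The other 6 were on the lower side: Nfat5 at -0.38 (-0.84 to 0.08), Nfatc2 at -0.48 (-1.27 to 0.31), Nfatc1 at -0.20 (-0.55 to 0.15), Ppp3ca at -0.25 (-1.14 to 0.65), Ppp3r1 at -0.21 (-2.99 to 2.56) and Rcan1 at -0.79 (-4.03 to 2.46). The adjusted p was 0.9999 for each of the 8. The median over all genes tested was -0.112 in this comparison, so these values sit on a table shifted to the lower side. The intervals of Rcan1 (0.0612- to 5.49-fold) and Ppp3r1 (0.126- to 5.89-fold) are the widest, both genes being at 0 or 1 read in Sirt2-/- CD4+ replicate 4.

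Without WT replicate 1 and Sirt2-/- replicate 4, with 3 CD4+ libraries a group, the median over all genes was -0.002 and the intervals narrowed. Rcan1 then had a log2 fold change of -0.20 (95% interval -0.89 to 0.48), Ppp3r1 0.19 (-0.12 to 0.50), Ppp3ca -0.03 (-0.36 to 0.30) and Nfatc2 -0.16 (-0.43 to 0.12). Nfatc3 was at 0.16 (-0.09 to 0.41) and Nfatc1 at -0.18 (-0.43 to 0.07). With all libraries 0 of the 8 genes separated the groups without overlap, against 3.13% of all genes tested. Without those 2 libraries 2 did, Nfatc3 (371.3 to 392.0 CPM in Sirt2-/- against 313.1 to 353.4 CPM in WT) and Nfatc1 (201.3 to 225.7 against 228.5 to 253.6 CPM), against 10.9% of all genes. Neither was called (adjusted p = 0.9898, edgeR), and 0.0374% of genes were called in that fit. With only WT replicate 2 left out, the library with the most Ddx3y, Nfatc1 was at -0.15, Nfatc2 at -0.47 and Nfatc3 at 0.31.

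In CD8+ TILs the genotype differences of the 8 genes lay between -0.31 and 0.33 on the log2 scale. With edgeR none was called among 15302 genes, against a background of 0.00654%, which is Sirt2 alone. None had an unadjusted p below 0.05 in edgeR. DESeq2 called none of the 8 either, and 55 of 27210 genes in all. Nfatc3 had a log2 fold change of -0.02 (95% interval -0.24 to 0.20), Nfatc1 -0.07 (-0.29 to 0.15), Ppp3cb -0.06 (-0.30 to 0.18) and Ppp3ca -0.12 (-0.41 to 0.17). The intervals of these 4 genes lie within 0.753-fold (the lower bound of Ppp3ca) and 1.15-fold (the upper bound of Nfatc3). Nfatc2 was at -0.20 (-0.44 to 0.04, adjusted p = 0.986), Nfat5 at -0.31 (-0.68 to 0.05), Ppp3r1 at 0.21 (-0.10 to 0.52) and Rcan1 at 0.33 (-0.22 to 0.87). In all 8 cases the libraries overlapped between genotypes, against 2.95% of all genes that did not.

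Without WT CD8+ replicate 1, Nfatc2 was the gene of the 8 whose groups did not overlap, at 168.8 to 195.3 CPM in WT and 136.8 to 158.3 CPM in Sirt2-/- libraries. Its log2 fold change was -0.27 (95% interval -0.47 to -0.07, unadjusted p = 0.012, edgeR adjusted p = 0.9998). Of all genes, 5.17% did not overlap and 0.0439% were called in that fit. Without WT replicate 2, the library highest in both Nfatc2 and Ddx3y, the value was -0.12 (-0.39 to 0.14), and the part of sex in it was not tested. Leaving out WT replicate 2 also turned the sign of Nfatc1 (0.01, -0.23 to 0.25) and Nfatc3 (0.04, -0.21 to 0.29). Ppp3r1 was at 0.32 (-0.003 to 0.65, adjusted p = 0.916) without WT replicate 2 and at 0.09 (-0.12 to 0.30) without WT replicate 1. Nfat5 moved with replicate 1 as well: -0.14 (-0.41 to 0.13) without WT replicate 1 and -0.39 (-0.75 to -0.02, adjusted p = 0.916) without WT replicate 2.

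**Figure D2:**
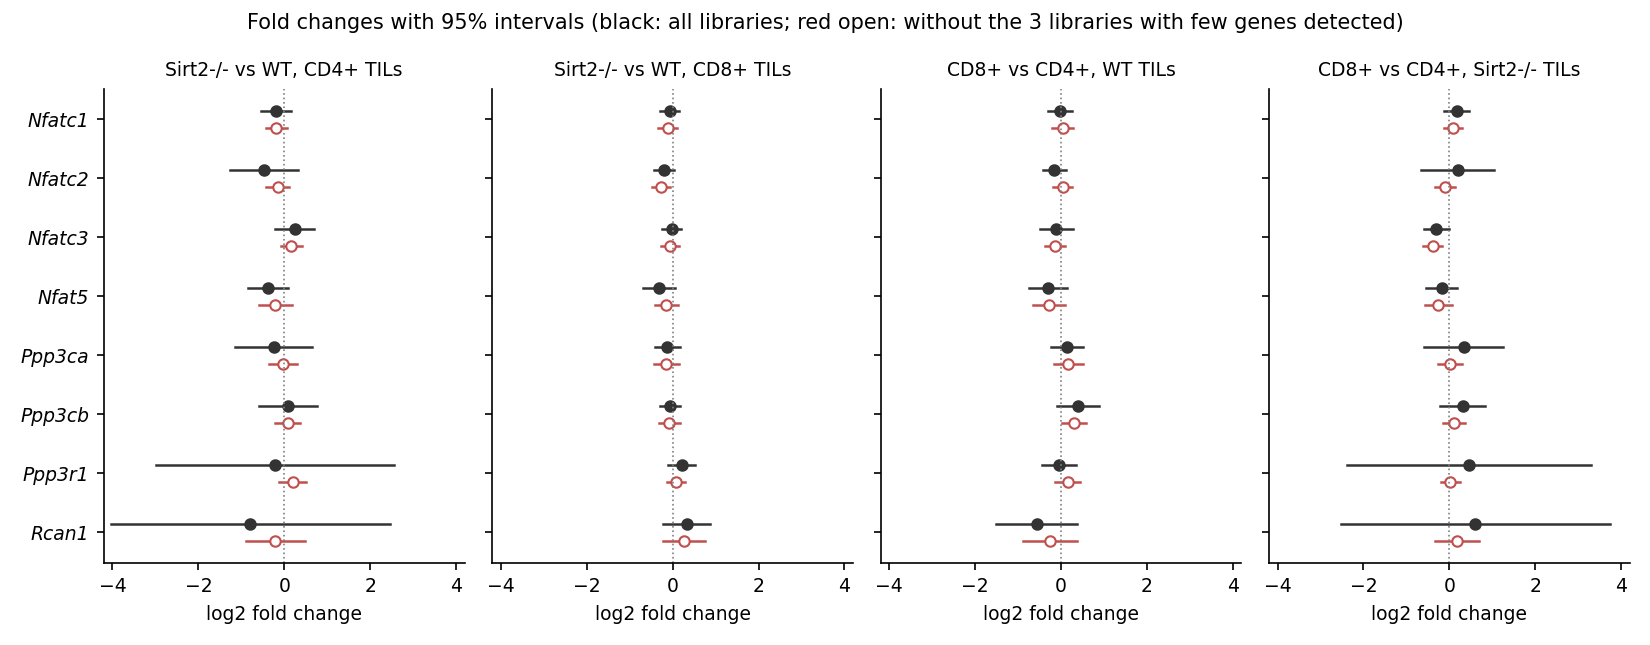
Log2 fold changes of the 8 genes with 95% intervals from edgeR in 4 comparisons, with all libraries (black, filled) and after leaving out the 3 libraries of low gene detection (red, open). The intervals of Ppp3r1 and Rcan1 in the 2 comparisons that hold Sirt2-/- CD4+ replicate 4 span several log2 units and shrink to under 1.5 units without it.

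Whether loss of Sirt2 acted differently in the 2 cell types was asked of all 16 libraries in 1 model. None of the 8 genes was called, and 0% of 17270 genes were (0% also without the 3 libraries). None had an unadjusted p below 0.05 in edgeR. DESeq2 called none of them, and 5 of 28810 genes in all. The difference of the genotype effects, CD8+ minus CD4+, was -0.26 on the log2 scale for Nfatc3 (95% interval -0.71 to 0.20) and 0.29 for Nfatc2 (-0.53 to 1.12). Without the 3 libraries these were -0.22 (-0.52 to 0.08) and -0.12 (-0.43 to 0.20), and Rcan1 was at 0.46 (-0.30 to 1.23).

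CD8+ and CD4+ TILs of WT mice differed at 11.9% of 14892 genes tested (28.0% without the 2 replicate 1 libraries). None of the 8 genes was called by edgeR, with or without those libraries. DESeq2 called none of them, and 3113 of 25690 genes in all. Over 8 genes, 0 calls cannot be set apart from a share of 11.9%. None had an unadjusted p below 0.05 with all libraries. The log2 fold changes (CD8+ over CD4+) were 0.39 for Ppp3cb (95% interval -0.10 to 0.88), 0.14 for Ppp3ca (-0.24 to 0.52), -0.04 for Ppp3r1 (-0.43 to 0.36) and -0.57 for Rcan1 (-1.503 to 0.37). Among the NFAT genes they were -0.03 for Nfatc1 (-0.31 to 0.25), -0.15 for Nfatc2 (-0.42 to 0.12), -0.11 for Nfatc3 (-0.50 to 0.28) and -0.31 for Nfat5 (-0.75 to 0.14). The groups overlapped for all 8, while 22.7% of all genes did not (43.9% without the 2 libraries, where again 0 of the 8 stood apart). Ppp3cb came nearest to the threshold: without the 2 libraries its log2 fold change was 0.29 (0.02 to 0.57, adjusted p = 0.112).

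In Sirt2-/- TILs, 2.24% of 15787 genes were called between CD8+ and CD4+ and 25.4% without CD4+ replicate 4. None of the 8 was called with all libraries by edgeR or DESeq2, and DESeq2 called 658 of 26439 genes in all. Nfatc3 had the only unadjusted p below 0.05, with a log2 fold change of -0.30 (95% interval -0.59 to -0.02, adjusted p = 0.386). Without CD4+ replicate 4 it was called lower in CD8+ TILs, at -0.39 (-0.60 to -0.18, adjusted p = 0.0126), with 257.6 to 310.3 CPM in CD8+ against 371.3 to 392.0 CPM in CD4+ libraries. That is 1 of 8 genes called and 1 of 8 without overlap, at a background of 25.4% called and 35.5% without overlap. With all libraries 0 of the 8 stood apart, against 22.2% of all genes. A count of 1 of 8 is too small to be set apart from these shares. Over the 14 alternative settings the adjusted p of Nfatc3 ran from 0.0126 to 0.854. The other 7 ranged from -0.26 for Nfat5 (-0.57 to 0.05) to 0.18 for Rcan1 (-0.34 to 0.70) without that library. With it, Rcan1 was at 0.61 (-2.52 to 3.73) and Ppp3r1 at 0.45 (-2.39 to 3.29). The WT and Sirt2-/- comparisons of cell types share no library, and Nfatc3 without the 3 libraries was at -0.14 (-0.38 to 0.10) in WT TILs.

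Ppp3cc and Rcan3, which belong to the same families, differed between the cell types in WT TILs, and Rcan3 also in Sirt2-/- TILs with all libraries. Of 6 further family genes (Nfatc4, Ppp3cc, Ppp3r2, Rcan2, Rcan3 and Chp1), 3 had enough counts to be tested. Ppp3cc (chr14:70217865-70289471, minus strand), the gamma catalytic subunit best known from testis, was at 45.0, 71.3, 73.3 and 78.0 CPM in WT CD4+ and 154.2, 151.1, 169.4 and 150.9 CPM in WT CD8+ TILs. In Sirt2-/- mice it was at 62.4, 72.4, 82.1 and 15.7 CPM in CD4+ and 135.1, 141.7, 157.2 and 224.5 CPM in CD8+ TILs. Every CD8+ library was above every CD4+ library. In WT TILs the log2 fold change was 1.15 (SE 0.18, adjusted p = 0.0021, 2.22-fold). In Sirt2-/- TILs it was 1.48 (SE 0.46, adjusted p = 0.177), and 1.15 (SE 0.18, adjusted p = 0.00142) without CD4+ replicate 4. Its mean share of the 3 catalytic subunits, per kilobase, was 55.5% ± 2.19 in WT CD4+, 49.9% ± 8.78 in Sirt2-/- CD4+, 69.2% ± 1.35 in WT CD8+ and 70.9% ± 4.79 in Sirt2-/- CD8+ TILs (SD, n = 4 each). By the longest coding transcripts these shares were 39.1%, 35.3%, 54.5% and 56.7%. The antisense gene Gm49417 overlaps exons of Ppp3cc.

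Rcan3 (chr4:135412308-135433853, minus strand), a calcineurin-binding relative of Rcan1, went the other way. It was at 86.9, 104.0, 99.9 and 127.5 CPM in WT CD4+ and 45.9, 42.7, 34.7 and 37.2 CPM in WT CD8+ TILs, with a log2 fold change of -1.46 (SE 0.17, adjusted p = 0.000347). In Sirt2-/- TILs it was at 106.3, 87.2, 105.1 and 88.8 CPM in CD4+ and 48.9, 28.2, 40.4 and 30.7 CPM in CD8+, with a log2 fold change of -1.40 (SE 0.22, adjusted p = 0.0175). No CD8+ library reached the lowest CD4+ library in either genotype. Over 14 alternatives Rcan3 was called in all 14 in WT TILs and not called in 5 in Sirt2-/- TILs. On the per-kilobase scale Rcan3 averaged 20.5 and 19.0 in WT and Sirt2-/- CD4+ TILs and 7.85 and 7.25 in CD8+ TILs, above Rcan1 in each group. Chp1, a calcineurin B homologue, was called in neither genotype with all libraries, and without CD4+ replicate 4 it was called lower in Sirt2-/- CD8+ TILs (-0.38, SE 0.087, adjusted p = 0.00819). Ppp3r2 had no count in any library and Rcan2 at most 0.0403 CPM.

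**Figure D3:**
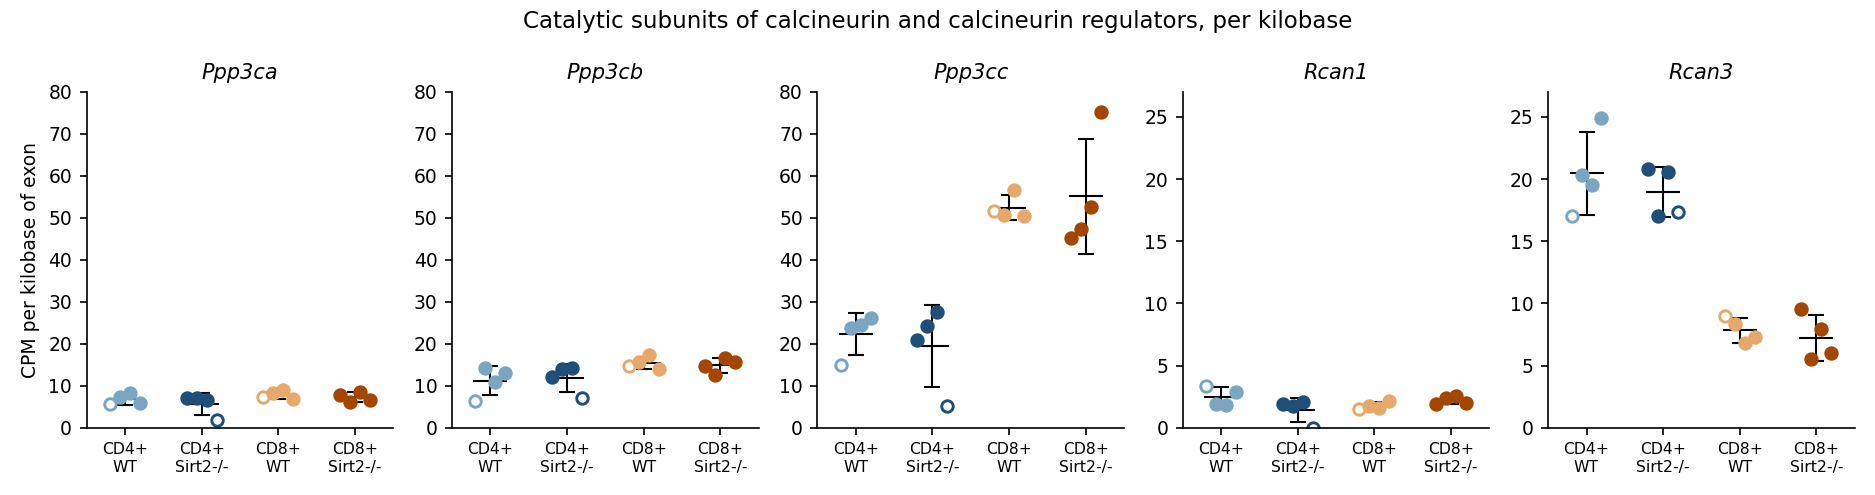
CPM per kilobase of exon (linear axes from 0, shared by the catalytic subunits and by the RCAN genes) in each library, with mean and SD (n = 4), libraries with few genes detected as open points. Ppp3cc lies higher in every CD8+ library than in any CD4+ library and Rcan3 lower, while Ppp3ca, Ppp3cb and Rcan1 overlap between the cell types.

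Upstream of calcineurin, 12 genes of calcium release and entry were tested, and 4 were called between CD8+ and CD4+ WT TILs, 3 of them lower in CD8+ cells (median log2 fold change -0.215, against -0.0235 over all genes). Itpr1 and Itpr2, calcium release channels, were lower in CD8+ TILs by -1.03 (SE 0.12, adjusted p = 0.000292) and -0.78 (SE 0.13, adjusted p = 0.00278), and Plcg1, which makes inositol trisphosphate, by -0.80 (SE 0.11, adjusted p = 0.000966). In Sirt2-/- mice 0 were called higher and 2 lower, Itpr2 (-0.67, SE 0.11, adjusted p = 0.0189) and Itpr1 (-0.64, SE 0.13, adjusted p = 0.0431). DESeq2 called 0 of the 12 there (adjusted p = 0.0792 for Itpr2 and 0.158 for Itpr1), and over 14 alternatives Itpr2 was not called in 7 and Itpr1 in 9. Without CD4+ replicate 4, 2 were called higher and 6 lower, with the store sensors Stim1 and Stim2 and the channel gene Orai1 among the lower ones.

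Of 20 regulators of NFAT and calcineurin, 19 were tested. In WT TILs 1 was called higher and 5 lower in CD8+ cells (median -0.441). Ppia, which encodes cyclophilin A, the receptor of cyclosporin, had a log2 fold change of 0.57 (SE 0.15, adjusted p = 0.0324). Lrrk2, which holds NFAT in the cytosol through a noncoding RNA complex, was lower by -3.63 (SE 0.49, adjusted p = 0.000803). The NFAT-priming kinase genes Dyrk1b (-1.62, SE 0.33) and Dyrk1a (-0.53, SE 0.12) and the casein kinase gene Csnk1e (-0.94, SE 0.25) were lower too. In Sirt2-/- TILs Ppia (0.85, SE 0.10, adjusted p = 0.0050) and the importin gene Kpnb1 (0.65, SE 0.13, adjusted p = 0.0394; 0.179 with DESeq2) were called higher and 0 lower, or 3 higher and 6 lower without CD4+ replicate 4. Over 14 alternatives Kpnb1 was not called in 9 and Ppia in 1 there. In WT TILs Ppia and Csnk1e were each not called in 7 of 14 and Dyrk1a in 5.

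Among 9 genes that NFAT induces with AP-1, 6 were tested in either genotype. Fasl (1.63, SE 0.40, adjusted p = 0.0214) and Ifng (1.78, SE 0.47, adjusted p = 0.0327) were higher in WT CD8+ TILs. Il2ra (-2.91, SE 0.25, adjusted p = 4.95e-05) and Cd40lg (-6.89, SE 0.70, adjusted p = 0.000136) were lower, and both also serve here as markers, of Treg and CD4+ cells. Between Sirt2-/- TILs Fasl (1.53, SE 0.27, adjusted p = 0.0273) was higher and Il2ra (-2.86, SE 0.35, adjusted p = 0.00666) lower. Over 14 alternatives Fasl was not called in 8 there, while Il2ra was called in all 14. In WT TILs Ifng was not called in 8 of 14 and Fasl in 3. Fasl stood at 6.05 to 28.8 CPM in WT CD4+ and 51.9 to 75.9 CPM in WT CD8+ libraries, and Ifng at 1.94 to 4.14 and 7.38 to 12.3 CPM. The median over 6 genes was 0.707. The list of NK cell markers (Ncr1, Klrb1c and Eomes) summed to 210.3 to 417.5 CPM in CD8+ and 15.7 to 45.7 CPM in CD4+ libraries. Most of that sum was Eomes, which CD8+ T cells express as well, with a mean of 226.7 CPM in WT CD8+ and 19.3 CPM in WT CD4+ libraries, whereas Ncr1, the defining marker, averaged 0.671 and 0.939 CPM and Klrb1c 6.42 and 3.63 CPM there. In Sirt2-/- libraries Ncr1 averaged 1.48 CPM in CD8+ and 1.92 CPM in CD4+ TILs. Without the libraries of low gene detection this list had 3 called higher and 2 lower in WT and 3 higher and 3 lower in Sirt2-/- TILs.

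All 19 genes tied to NFAT in anergy and exhaustion were tested. In WT TILs 1 was called higher in CD8+ cells, Havcr2, which encodes TIM-3 (0.90, SE 0.19, adjusted p = 0.00939), and 7 lower (median -0.810). The largest of the latter were Ctla4 (-4.69, SE 0.25, adjusted p = 1.97e-06), Ndrg1 (-2.94, SE 0.28), the costimulatory receptor gene Tnfrsf9 (-1.88, SE 0.20) and the transcription factor gene Irf4 (-1.36, SE 0.25). Ctla4, Tnfrsf9 and Irf4 are also expressed by Treg cells, whose markers were summed at 1005 CPM or more in CD4+ and at most 295.5 CPM in CD8+ libraries, and the part of these cells was not tested. Sirt2-/- TILs had 0 called higher and 3 lower: Ctla4 (-4.56, SE 0.50), Dgka (-1.20, SE 0.22) and Irf4 (-0.9996, SE 0.20). Over 14 alternatives Dgka was not called in 7 and Irf4 in 9 there, while Ctla4 was called in all 14. Without the libraries of low gene detection the counts were 4 higher and 10 lower in WT and 4 higher and 6 lower in Sirt2-/- TILs. Of 7 osmotic stress genes tied to Nfat5, 6 were tested, and Hspa1b was called lower in WT CD8+ TILs (-1.85, SE 0.41, adjusted p = 0.014). In Sirt2-/- TILs edgeR called 0, and Hspa1b was at -2.11 (adjusted p = 0.0601). There 3 of 6 had an unadjusted p below 0.05 in edgeR, against 1842 of 15787 over all genes tested. DESeq2 called 2 of 7 there, against 658 of 26439 over all genes. Without the libraries of low gene detection 2 were called higher and 2 lower in each genotype.

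**Figure D4:**
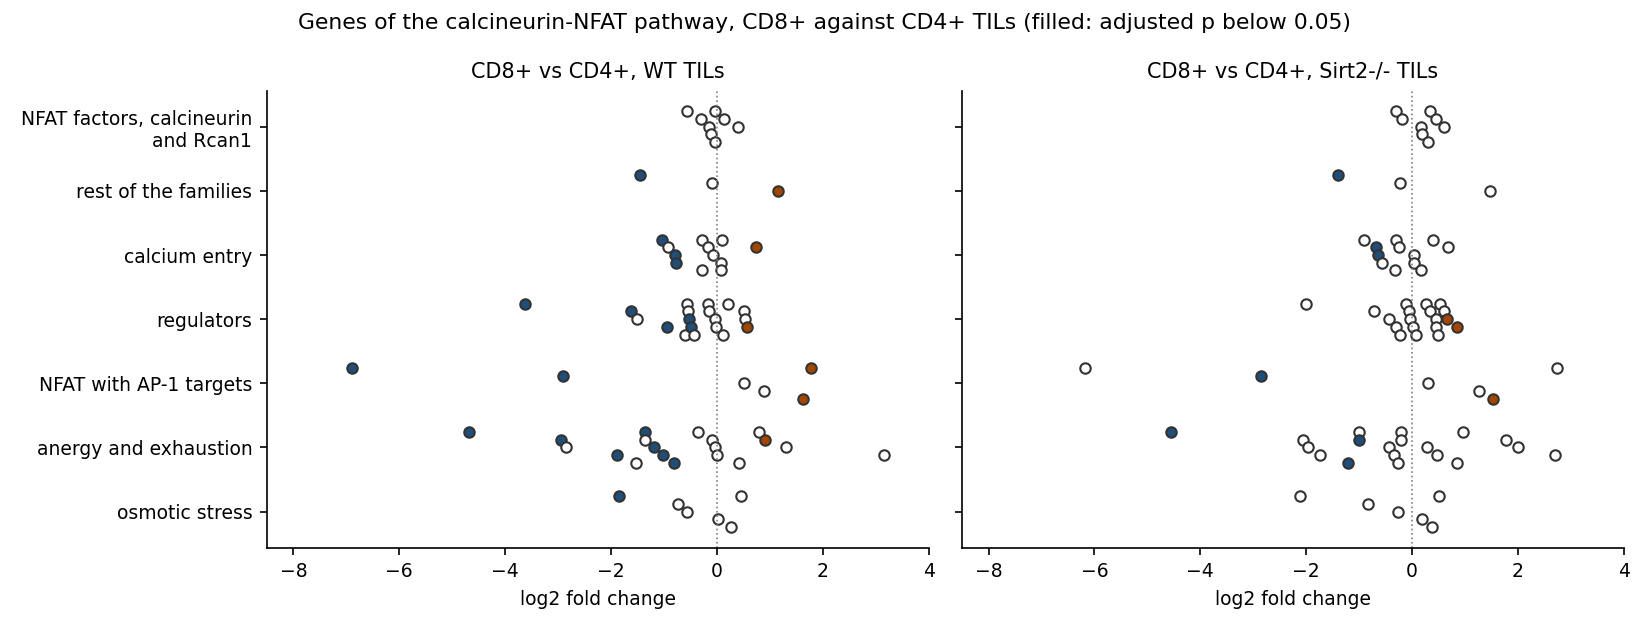
Log2 fold changes of CD8+ over CD4+ TILs for the 8 genes and the 6 lists of pathway genes, in WT and Sirt2-/- mice, 1 point a gene, filled where the edgeR adjusted p is below 0.05 (orange higher in CD8+, blue lower). The 8 genes lie between -0.57 and 0.61 and none is filled, while 25 list genes are filled in WT and 10 in Sirt2-/- TILs.

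Over the 6 lists together, 25 of 65 tested genes were called between the cell types in WT (6 higher, 19 lower) and 10 of 65 in Sirt2-/- TILs (3 higher, 7 lower), or 40 of 66 in each without the 3 libraries. The background for these shares was 11.9% and 2.24%, or 28.0% and 25.4% without them. The lists were chosen with earlier results of these data known. They hold Cd40lg and Il2ra, which also serve here as cell type markers, so the shares are a description. Between genotypes 0 of 66 list genes were called in CD4+ and 0 of 65 in CD8+ TILs with edgeR, and DESeq2 called 0 in both. At an unadjusted p below 0.05 in edgeR there were 1 and 4, against 190 of 15070 and 579 of 15302 over all genes tested. The anergy and exhaustion list had 18 of 19 genes on the higher side in Sirt2-/- CD8+ TILs, against 7946 of 15302 over all genes. The median log2 fold change of the list was 0.282, against 0.0106 over all genes. Without WT CD8+ replicate 1 the list had 14 of 19 on the higher side, with a median of 0.106. In CD4+ TILs, with all libraries, it had 7 of 19 with a median of -0.250, against -0.112 over all genes. Without the CD4+ libraries of low gene detection it had 9 of 19 with a median of -0.0938. The myeloid and the stromal and endothelial marker lists had higher medians in the same Sirt2-/- CD8+ libraries than in WT ones, with ranges that overlapped. The myeloid list summed to 8.42 to 32.4 CPM against 2.24 to 8.62 CPM. The stromal and endothelial list summed to 40.6 to 103.9 CPM against 36.2 to 48.3 CPM. Most of the latter sum was Pecam1, with a mean of 58.3 CPM against 39.6 CPM, and it averaged 103.2 CPM in WT CD4+ libraries. The part of other cells was not tested. Tnfrsf9 (0.66, SE 0.22, adjusted p = 0.986) and Pdcd1 (0.53, SE 0.19, adjusted p = 0.986) had the lowest unadjusted p of the lists in CD8+ TILs, 0.0112 and 0.0172.

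The genes most like each of the 8 were sought by Pearson's r of log2 CPM over the 13 libraries with more genes detected, among 8302 genes with a mean of at least 10 CPM. The libraries share cell types and genotypes, so r is a description. Each partner was picked for the highest r among 8302 genes over 13 libraries, and such a search by itself yields high values. Nfatc1 was most like Taok3 (r = 0.895) and Tacc1 (0.891), Nfatc2 like Ddx3y (0.844) and Tnik (0.831), Nfatc3 like Cnot6l (0.926) and Usp9x (0.899), and Nfat5 like Gm37529 (0.892) and Exoc2 (0.887). Ppp3ca was most like Fam192a (0.880) and Fnta (0.848), Ppp3cb like Galnt1 (0.941) and Spcs3 (0.917), Ppp3r1 like Dr1 (0.871) and Ppp6c (0.854), and Rcan1 like Srebf1 (0.883) and Slc35b2 (0.877). None of these was another of the 8 genes by construction, and over all 16 libraries several pairs lost the likeness: r was -0.0255 for Nfatc1 with Taok3, -0.859 for Ppp3r1 with Dr1 and -0.751 for Ppp3ca with Fam192a. For Nfatc2 it was 0.466 with Ddx3y and 0.912 with Tnik. The Y-linked gene beside Nfatc2 separates the genotypes in these libraries, as given above.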

How the data were processed

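Total RNA of CD4+ and CD8+ TILs (CD3-enriched by magnetic beads from digested tumors; how the cell types were then separated is not given in the sources used here) was sequenced after a low-input, ribosome-depleted stranded preparation. The authors deposited 1 table of counts of reads per gene, not normalized; the submitters' processing notes name STAR, HTSeq and mm10. All 55450 gene identifiers matched GENCODE M21 (GRCm38).

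Libraries were grouped by their labels. Counts were fitted over the whole table in R 4.3.3 with edgeR 4.0.16 (TMM, filterByExpr with a minimum count of 10, robust quasi-likelihood test, two-sided) and adjusted by Benjamini-Hochberg over all genes tested, with a threshold of 0.05. Intervals are 95% intervals from the same test. CPM were scaled by TMM over 16 libraries, and log2 CPM used a prior count of 2. p-values measure the spread between these libraries, and nothing in the labels ties libraries to single animals. Libraries held 28000949 to 62407851 counts, and a floor of 3 counts, which covers counting error only, was used for genes without reads.

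The 8 genes, the lists and the rule for named genes (members, and called list genes, up to 4 in each direction by size) were chosen with earlier results of these data known; Nfatc4, Chp1, Ppp3r2, Rcan2, Pdcd1, Stim1, Stim2 and Orai1, and Ppp3cc, Tnfrsf9 and Hspa1b where they were not called, were named after their values were seen. A called gene of the calcium list is not reported here by name. Alternatives were DESeq2 1.42.0, RLE normalization, no filter, 16 libraries in 1 model, a replicate block, leaving out each library and leaving out libraries with under 15000 genes detected. Lengths by the longest coding transcript were added after seeing the data. The fits were tested on simulated data.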

Additional observations from a re-analysis of the deposited data

Results flagged for a closer look

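In groups of 4 libraries, 3 of 32 group-by-gene sets had a library set apart from the other libraries of its group (its gap to the nearest other, over the range, above the 95% critical value), where chance gives about 1.6 of 32. Ppp3ca was at 18.1 CPM in Sirt2-/- CD4+ replicate 4, and Rcan1 was at 0 CPM in the same library, the library with the fewest genes detected. Ppp3r1 did not pass this rule, though it was at 0.0179 CPM in that library, against 60.98 to 73.61 CPM in the rest of its group. Nfatc3 was at 257.6 CPM in Sirt2-/- CD8+ replicate 2, a library with 18844 genes detected, against 305.3 to 310.3 CPM in the other 3 of its group.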

How the results depend on the processing

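Over 616 alternative values of the log2 fold changes of the 8 genes, 576 kept their direction and their side of the threshold, 38 changed sign and 2 passed the threshold (Nfatc3 without Sirt2-/- CD4+ replicate 4, in either form). No value that changed sign was called. The cause was not tested except where a library is named.

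Counts of called genes moved more than the 8 genes did. With DESeq2 they were 6, 55, 3113, 658 and 5 in CD4+ and CD8+ genotype comparisons, WT and Sirt2-/- cell type comparisons and the difference of effects (0, 1, 1765, 354 and 0 with edgeR). Without the 3 libraries they were 6, 7, 4394 and 4250, with 1 of the 8 genes called in the last. With all 16 libraries in 1 model the cell type comparisons called 811 and 781, and with no filter the CD8+ genotype comparison called 5. Leaving out 1 library at a time gave 0 to 7 calls between genotypes in CD8+ TILs (highest without WT replicate 1, 0 without Sirt2-/- replicate 1 or 4, where Sirt2 too was not called), 1022 to 2767 between cell types in WT (highest without CD4+ replicate 1, lowest without CD8+ replicate 4) and 111 to 4250 in Sirt2-/- TILs (highest without CD4+ replicate 4, where 1 of the 8 genes was called, and 0 otherwise; lowest without CD8+ replicate 3). Sirt2 was called in CD8+ TILs with all libraries; in CD4+ TILs its log2 fold change was -2.60 (adjusted p = 0.9999), and -1.94 (adjusted p = 0.00163) without the 2 libraries.

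Signs changed as follows. Without the 3 libraries the log2 fold change was 0.19 for Ppp3r1 between genotypes in CD4+ TILs; 0.038 for Nfatc1, 0.038 for Nfatc2 and 0.16 for Ppp3r1 between cell types in WT; -0.11 for Nfatc2 in Sirt2-/- TILs; and, for the difference of effects, -0.12 for Nfatc2, -0.11 for Ppp3ca and -0.11 for Ppp3r1. Between cell types in WT, Nfatc1 was at 6.31e-05 with RLE, 0.051 with no filter and 0.046 with 16 libraries, and Ppp3r1 at 0.039 and 0.034 with the last 2. Leaving out 1 library at a time, the CD4+ genotype values ran from -0.38 to 0.055 for Ppp3ca, -0.11 to 0.28 for Ppp3cb and -0.46 to 0.20 for Ppp3r1. The CD8+ ones ran from -0.11 to 0.012 for Nfatc1, -0.058 to 0.048 for Nfatc3 and -0.10 to 0.020 for Ppp3cb. Between cell types the WT values ran from -0.040 to 0.073 for Nfatc1 and -0.077 to 0.14 for Ppp3r1, and Nfatc2 in Sirt2-/- TILs from -0.11 to 0.38. The differences of effects ran from -0.011 to 0.48 for Nfatc2, -0.024 to 0.24 for Nfat5, -0.16 to 0.27 for Ppp3ca and -0.33 to 0.060 for Ppp3cb.

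With the replicate number as a block, 4 genes were called between genotypes in CD8+ TILs and 108 between cell types in Sirt2-/- TILs, 1619 in WT, and none of the 8 in any comparison. Libraries of the 2 genotypes with the same number shared only the number (residual correlations -0.07 to 0.08). CD4+ and CD8+ libraries of the same number correlated at 0.067 to 0.119 in WT and -0.015 to 0.133 in Sirt2-/- TILs, not above 0.1 in every pair, and the levels of Ddx3y in WT replicates 1 to 4 ran alike in CD4+ (22.0, 121.3, 4.35 and 2.18 CPM) and CD8+ TILs (24.4, 111.6, 5.49 and 3.39 CPM), a hint from the data that they share animals.

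Of the list genes called between cell types, 305 of 350 alternative values stayed called in WT and 85 of 140 in Sirt2-/- TILs, 0 changed sign, and all 25 and 10 were called without the 3 libraries. Rcan1 had the fewest reads of the 8 genes, 152 to 390 a library apart from a library at 0 whose total count was the highest of all (62407851).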
